A study of Mus musculus with 25 samples.

Results

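Collagens are the main structural proteins of the extracellular matrix. They are described here as 42 genes of 18193 named on the array, namely every gene whose platform symbol was Col, a number, a and a number. Together they had 82 probe sets, and where a gene had several, the one brightest on average over the 25 arrays stood for it. By type they were 11 fibrillar, 6 basement membrane, 5 type VI, 9 FACIT, 3 network, 2 multiplexin and 4 transmembrane collagens, with the anchoring fibril gene Col7a1 and Col26a1 set apart as 2 others.

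The study profiled engineered mouse cells and native tissues, 1 sample per array, in 10 groups. Colon-engrafted iHeps (n = 2) were GFP positive induced hepatocytes, sorted from crypts of DSS-damaged colon in Rag2gammac-/- hosts 12 days after transplantation. iHeps (n = 3) were independent lines made from C57BL/6J embryonic fibroblasts (E13.5) with Foxa1 and Hnf4a retroviruses, and were grown on gelatin and then on collagen. Fetal liver (n = 2, E14.5) and adult liver (n = 2) came from C57BL/6J mice, and colon crypts (n = 2) came from 8-week-old Rag2gammac-/- mice. Further iHeps carried lentiviral shRNA against Cdx2 (n = 4) or a scramble shRNA (n = 4). Induced macrophages (iMac) were made after lentiviral shRNA against Ebf1 (n = 2), against Pou2af1 (n = 2) or scramble shRNA (n = 2); all shRNA groups, scramble included, were selected with puromycin. Their source labels name C10 cells, a pre-B line that is 1 line, and the growth text gives induction with 100 nM estradiol on the scramble arrays, to which both knockdowns are compared, but does not state it on the knockdown arrays. The adult liver arrays carry conflicting labels: 1 field gives liver at 8 weeks and another gives collagenase-isolated hepatocytes at 10 weeks. The labels do not say whether replicates other than the iHep lines were separate cultures or animals, so each p-value reflects the spread among these samples alone, which may be technical.

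A collagen chain is hydroxylated on proline and lysine in the endoplasmic reticulum, folds as a triple helix with the help of the chaperone HSP47 (Serpinh1), and is secreted, trimmed and, in fibrils, crosslinked by lysyl oxidases. Fibrillar collagens such as types I, III and V form the fibrils of connective tissue, and fibroblasts and stellate cells are known as their main sources. Type IV collagens form the network of basement membranes under epithelia and around vessels, type VI forms beaded filaments near cells, FACIT collagens bind to fibril surfaces, and the multiplexin type XVIII lies in basement membranes and is also made by hepatocytes.

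Of the 42 collagen genes, 33 had a promoter in the RefSeq tables for GRCm38.p6, in 36 windows of 120 bases before the annotated start. The promoters of Col1a2, the second chain of type I, and Col11a1, a minor fibrillar chain, are shown because Col11a1 was higher in iHeps than in every tissue compared below, whereas Col1a2 split the iHep lines and passed the test in no comparison. A stretch of 30 bases before the start of Col4a2 is shown because Col4a2 and Col4a1 changed together under Cdx2 shRNA. Capitals mark CCAAT or its reverse complement ATTGG.
Col1a2 promoter, chr6:4505498-4505617, plus strand: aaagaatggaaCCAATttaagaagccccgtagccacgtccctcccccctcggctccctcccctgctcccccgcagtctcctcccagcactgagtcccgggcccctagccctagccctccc
Col11a1 promoter, chr3:114030420-114030539, plus strand: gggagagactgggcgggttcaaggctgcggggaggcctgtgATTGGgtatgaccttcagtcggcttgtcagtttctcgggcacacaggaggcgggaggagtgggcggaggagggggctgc
Col4a2 stretch, chr8:11312761-11312790, plus strand: ccgaggagctccCCAATttgttggcgctgc
CCAAT on either strand was in 16.7% of the 36 collagen windows and in 21.3% of 32851 windows of all promoters. The GC box, searched as GGGCGG or CCGCCC, was in 47.2% of the collagen windows and in 26.5% of all windows. The TATA box, searched as TATAAA or TTTATA, was in 8.33% and 6.34%. These searches can overlap in 1 window, and a match is a description of letters only. The starts of Col4a1 (minus strand, 11312826) and Col4a2 (plus strand, 11312805) lay 21 bases apart on chromosome 8. Col4a1 is read from its start across that of Col4a2, so the 30 bases shown lie in the transcribed beginning of Col4a1. The starts of Col4a5 and Col4a6 lay 1343 bases apart on chromosome X, also on opposite strands.

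Levels are log2 signals after RMA, whose precision is set by how few arrays each group holds. A gene was read as measurable on an array above the 40th percentile of all probe sets there, which lay between 5.52 and 5.80. In these terms 6 collagen genes were measurable on all 25 arrays (Col7a1, Col9a3, Col16a1, Col18a1, Col20a1 and Col25a1) and 6 on none (Col4a3, Col4a4, Col6a5, Col8a2, Col17a1 and Col24a1). The range over the 25 arrays exceeded 2 for 28 members and 4 for 16 members. In bulk samples, fewer cells of a type and less RNA per cell cannot be told apart.

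**Figure D1:**
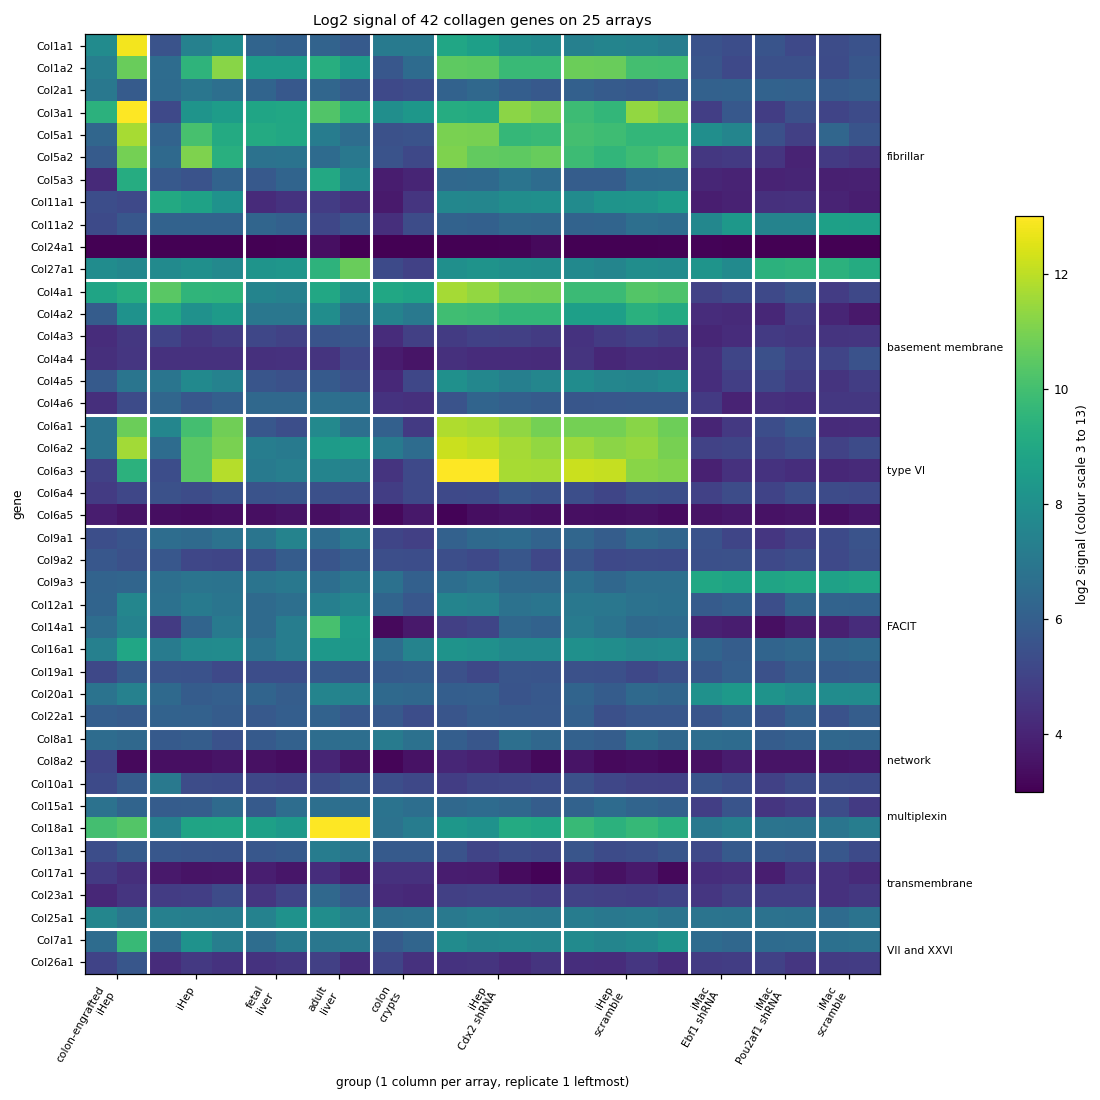
Log2 signal (colour, 3 to 13) of the 42 collagen genes (rows, by type) on the 25 arrays (columns, by group). Engrafted replicate 2 stands out from replicate 1 in the fibrillar and type VI rows, adult liver in the Col18a1 row, and iMac in the Col9a3, Col11a2 and Col20a1 rows.

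Several arrays stood apart within their group or against their labels. Colon-engrafted replicate 2 had macrophage markers at a summed log2 signal of 12.03 against 7.76 in replicate 1, leukocyte markers at 11.21 against 9.20, and 7 against 3 of 11 fibroblast markers measurable. iHep line 1 had Alb at 5.69 and the fibroblast receptor Pdgfrb at 4.45, against 9.90 and 11.59 for Alb and 9.48 and 9.86 for Pdgfrb in lines 2 and 3. Line 1 had 4 of 7 hepatocyte markers measurable, against 6 in each other line, and 3 of 11 fibroblast markers, against 6. Other markers of these lists did not split, with Apoa1 at 14.97 in line 1, against 14.90 and 14.89. The fibroblast marker Twist1 was at 9.36 in line 1, against 9.35 and 9.14. Adult liver had all 5 leukocyte and all 5 stellate markers measurable on both arrays, with Rgs5 at 11.61 and 10.20. Cdx2 shRNA iHep replicate 1 had the hepatocyte gene Ttr at 8.36, against 11.91 to 12.43 on the other 3 Cdx2 shRNA arrays. As label checks, Cdx2 averaged 7.96 ± 0.12 with Cdx2 shRNA and 9.12 ± 0.21 with scramble (SD, n = 4 each), and Ebf1 averaged 7.31 ± 0.14 with Ebf1 shRNA and 8.35 ± 0.05 with scramble (SD, n = 2 each). Pou2af1 was not lower on the arrays labelled Pou2af1 shRNA, at 11.34 and 11.26 against 11.25 and 11.06 with scramble, so those arrays are named by their label.

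The 2 colon-engrafted arrays differed most in the fibrillar and type VI collagens. Between engrafted replicates 2 and 1, 11 of the 34 members that passed the filter differed by more than 2 on the log2 scale, each higher in replicate 2. Of all 15262 genes that passed, 2.76% were that much higher in replicate 2 and 1.79% that much lower. With 1 array on each side this is a description and no test. Col1a1, the main chain of type I, had 12.82 in replicate 2 and 7.82 in replicate 1, and its partner chain Col1a2 had 10.71 and 7.28. Col3a1, the single chain of type III, had 13.23 in replicate 2 and 9.44 in replicate 1. The type V chains, which are known to regulate fibril width, had 11.70 and 6.31 for Col5a1, 10.92 and 5.88 for Col5a2, and 9.20 and 4.21 for Col5a3, replicate 2 first. Replicate 2 was thus the higher array for 6 of the 11 fibrillar genes by this measure, and Col5a3 was below the 40th percentile in replicate 1. All 3 main type VI chains showed the same pattern, with 10.76 and 6.85 for Col6a1, 11.63 and 6.84 for Col6a2, and 9.43 and 4.92 for Col6a3. Col7a1, which forms the fibrils that anchor epithelium to stroma, had 9.74 in replicate 2 and 6.55 in replicate 1.

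The remaining types were closer on these arrays. Among basement membrane genes, Col4a1 had 9.25 in replicate 2 and 8.84 in replicate 1, whereas Col4a2 had 8.09 and 5.91. Col18a1 had 10.34 and 9.99, and Col27a1 had 7.62 and 7.86. Col8a2, with 3.25 and 5.05, was below the 40th percentile on both arrays. The median difference was 0.62 over the 34 members and 0.06 over all genes. Beside this contrast, Dcn, which encodes the fibril-binding proteoglycan decorin, had 10.29 in replicate 2 and 5.53 in replicate 1, and Pdgfrb 8.60 and 3.47. Some other fibroblast markers did not follow, with Fap at 5.45 in replicate 2 and 7.38 in replicate 1, and Fbln1 at 11.37 and 11.47. All 11 fibroblast markers together summed to 12.28 and 11.69, replicate 2 first. In the same order, the myeloid gene Lyz2 had 11.37 and 6.11, and Csf1r had 9.74 and 4.04. All 9 colon epithelium markers were measurable on both arrays, with summed signals of 15.21 and 15.37. The part of other cell types in these levels was not tested.

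**Figure D2:**
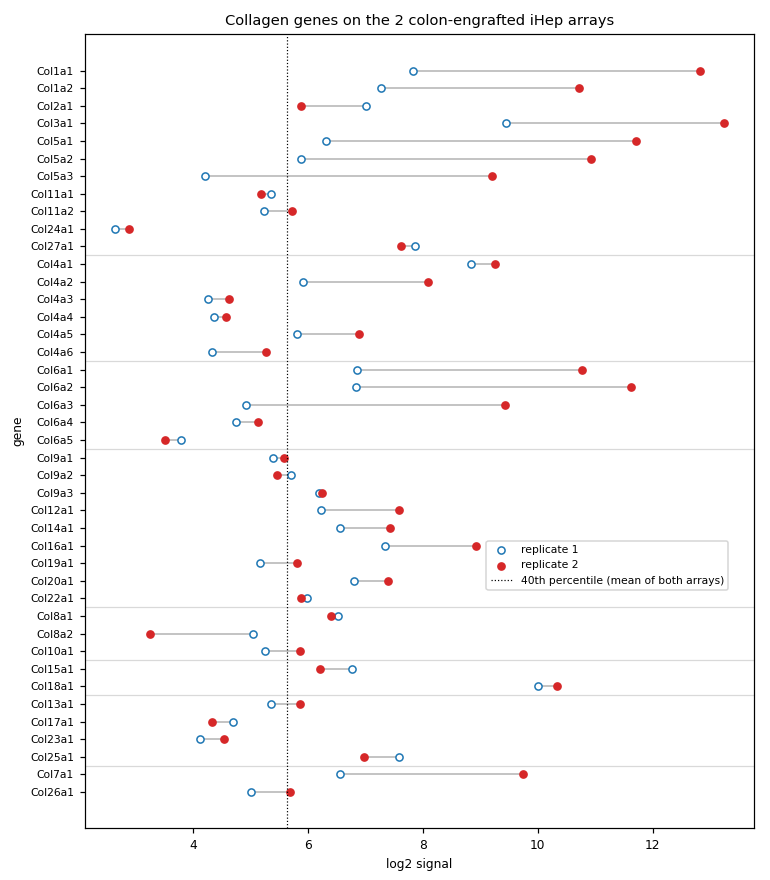
Log2 signal of each collagen gene on the colon-engrafted arrays of replicate 1 (open) and replicate 2 (filled), in order of type, with the mean 40th percentile dotted. For 11 members replicate 2 lay more than 2 above replicate 1, and for none that passed the filter was it more than 2 below.

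Set against the starting iHeps, engrafted iHeps had higher Col3a1, Col1a1 and Col18a1 and much lower Col11a1. Of 34 members tested, 5 were higher and 3 lower, and 26 did not pass the test. Over all 15262 genes tested, 18.2% were higher and 29.7% lower (48.0% in all). The median log2 difference was -0.09 over the 34 members and -0.22 over all genes. A called difference is one with a Benjamini-Hochberg adjusted p under 0.05 over all genes in limma, and every difference here is on the log2 scale.

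Among fibrillar genes, Col1a1 had 7.82 and 12.82 in engrafted iHeps, against 5.56, 7.39 and 7.85 in iHeps, and the groups overlapped. Its difference was 3.39 ± 1.17 (SE, adjusted p = 0.0376), but without engrafted replicate 2 it was 0.89 and no longer called, without engrafted replicate 1 it was 5.89, and the call was also lost without iHep line 1 or line 2. Col3a1 had 9.44 and 13.23 in engrafted iHeps, against 5.22, 8.18 and 8.52 in iHeps, with no overlap. The difference was 4.03 ± 1.13 (SE, adjusted p = 0.015), or 2.13 and not called without engrafted replicate 2. Col11a1 turned the other way, with 5.36 and 5.19 in engrafted iHeps, below the 40th percentile, against 9.06, 8.78 and 8.09 in iHeps. Its difference of -3.36 ± 0.33 (SE, adjusted p = 4.68e-05) has no exact size, since a level under that percentile may be background, and the same holds for other differences from such levels. Col1a2 had 7.28 and 10.71 in engrafted iHeps, against 6.53, 9.52 and 11.23 in iHeps, and Col5a2 had 5.88 and 10.92 against 6.41, 11.05 and 9.29. Neither passed the test, and in both genes the groups overlapped.

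In the basement membrane type, Col4a6 had 4.33 and 5.28 in engrafted iHeps, against 6.32, 5.73 and 6.02 in iHeps, a difference of -1.22 ± 0.29 (SE, adjusted p = 0.00648), or -0.74 without engrafted replicate 1. Col4a1 had 8.84 and 9.25 in engrafted iHeps, against 10.43, 9.53 and 9.49 in iHeps, and Col4a2 had 5.91 and 8.09 against 9.00, 8.06 and 8.44; neither passed the test. The type VI chains spread widely within both groups, and none passed. Col6a1 had 6.85 and 10.76 in engrafted iHeps, against 7.59, 10.00 and 10.84 in iHeps, and Col6a2 had 6.84 and 11.63 against 6.54, 10.44 and 10.97. In each, the first engrafted array and iHep line 1 were the low ones.

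Col18a1, whose C-terminal fragment is endostatin, had 9.99 and 10.34 in engrafted iHeps, against 7.33, 8.82 and 8.86 in iHeps. It was higher on both engrafted arrays than on any iHep array, by 1.83 ± 0.42 (SE, adjusted p = 0.00586), and stayed called without either engrafted array. Among FACIT genes, Col9a1, a cartilage collagen chain, had 5.39 and 5.59 in engrafted iHeps, against 6.58, 6.47 and 6.77 in iHeps, a difference of -1.11 ± 0.26 (SE, adjusted p = 0.00642). Col20a1 had 6.81 and 7.39 in engrafted iHeps, against 6.42, 5.92 and 6.01 in iHeps, and was higher by 0.98 ± 0.24 (SE, adjusted p = 0.00842), a call lost without engrafted replicate 2. The network collagen Col8a1 was higher by 0.70 ± 0.22 (SE, adjusted p = 0.0233), a call lost without engrafted replicate 1 or iHep line 3. Col17a1, the hemidesmosome collagen of epithelia, had 4.71 and 4.34 in engrafted iHeps, against 3.67, 3.51 and 3.59 in iHeps, all under the 40th percentile.

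Which engrafted array was left out decided the direction of the family's calls. Without replicate 1, 8 members were higher and 3 lower than in iHeps, with Col5a1, Col5a3 and Col7a1 among them, and 44.7% of all genes were called. Without replicate 2, 2 members were higher and 6 lower, with Col4a2, Col4a5 and Col5a3 among them, and 47.8% of all genes were called. Col5a3, at 4.21 and 9.20 in engrafted iHeps against 5.80, 5.57 and 6.17 in iHeps, passed the test in both of these fits, although each engrafted array lay on a different side of the iHep lines. Repeating the quantile normalization gave 5 higher and 5 lower members, and centring each array on its median gave 5 higher and 7 lower. For these 2 runs the share over all genes is not given, so the counts do not set collagens apart.

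Many genes of collagen assembly were lower in engrafted iHeps than in iHeps. Of 27 tested genes of procollagen biosynthesis, processing and crosslinking, 1 was higher and 13 lower, and of 8 collagen receptors 1 was higher and 1 lower. Over all genes tested, 18.2% were higher and 29.7% lower. Pcolce, which enhances the trimming of procollagen, had 8.97 and 9.69 in engrafted iHeps, against 13.73, 13.30 and 13.45 in iHeps, a difference of -4.17 ± 0.59 (SE, adjusted p = 0.000374). The lysyl oxidase relative Loxl3 was lower by -3.48 ± 0.79 and the lysyl hydroxylase Plod2 by -3.06 ± 0.69 (SE). Loxl3 had 4.83 and 6.19 in engrafted iHeps, against 7.18, 10.54 and 9.25 in iHeps. Plod2 had 5.00 and 7.92 in engrafted iHeps, against 9.93, 9.90 and 8.74 in iHeps. Both genes were under the 40th percentile in engrafted replicate 1. The gene that rose among the receptors was the integrin Itga2, at 10.17 and 9.79 in engrafted iHeps, against 6.95, 6.10 and 6.40 in iHeps, a difference of 3.50 ± 0.30 (SE, adjusted p = 1.88e-05). Colon crypts had Itga2 at 8.97 and 8.99.

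Set against colon crypts, engrafted iHeps had higher levels of 4 members and lower levels of none. The 4 of 34 were Col14a1, Col18a1, Col27a1 and Col4a5, beside 7.10% of all genes higher and 9.66% lower (16.8% in all). The median difference was 1.03 over the members and 0.01 over all genes. Col14a1, a fibril-associated collagen, had 6.57 and 7.42 in engrafted iHeps, against 3.26 and 3.68 in colon crypts, a difference of 3.52 ± 0.75 (SE, adjusted p = 0.0131). It was 2.24 on the mean of its probe sets, and its call was lost without either colon array. Col18a1 had 6.76 and 7.19 in colon crypts, which put engrafted iHeps 3.19 ± 0.46 higher (SE, adjusted p = 0.00224). Col27a1, a fibrillar collagen of cartilage, had 7.86 and 7.62 in engrafted iHeps, against 5.24 and 4.93 in colon crypts, 2.65 ± 0.36 higher (SE, adjusted p = 0.00166). The X-linked basement membrane chain Col4a5 had 5.82 and 6.89 in engrafted iHeps, against 4.16 and 5.14 in colon crypts, 1.70 ± 0.44 higher (SE, adjusted p = 0.0276), a call lost without engrafted replicate 2 or colon replicate 1. The colon levels of Col14a1, Col27a1 and Col4a5 were under the 40th percentile.

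The count against colon crypts depended on which array was left out. Without engrafted replicate 1, 17 members were higher than in colon crypts, among them Col1a1, Col1a2, Col3a1, all 3 type V chains, Col6a1 and Col6a2, and 24.5% of all genes were called. Without engrafted replicate 2 the count was 4, beside 17.2% of all genes, and without colon replicate 1 it was 2, beside 5.11%. Col3a1 had 7.93 and 8.30 in colon crypts and Col1a1 had 7.08 and 7.14, so both engrafted arrays lay above both crypt arrays in these genes without passing the test. Col1a2 (5.72 and 6.51 in crypts), Col5a2 (5.55 and 5.15), Col6a1 (6.06 and 4.68), Col6a2 (7.12 and 6.53), Col4a1 (8.95 and 8.81) and Col4a2 (7.48 and 7.03) also did not pass. Of the assembly genes, 7 of 27 were higher and 1 lower, beside 7.10% of all genes higher and 9.66% lower. Of the receptors, 2 of 8 were higher. The collagen chaperone Serpinh1 had 8.85 and 10.72 in engrafted iHeps, against 5.24 and 5.31 in colon crypts, 4.51 ± 0.52 higher (SE, adjusted p = 0.000754). Pcolce2 was higher by 4.90 ± 0.58, Pcolce by 3.12 ± 0.64 and the collagen receptor integrin Itga1 by 3.06 ± 0.47 (SE).

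**Figure D3:**
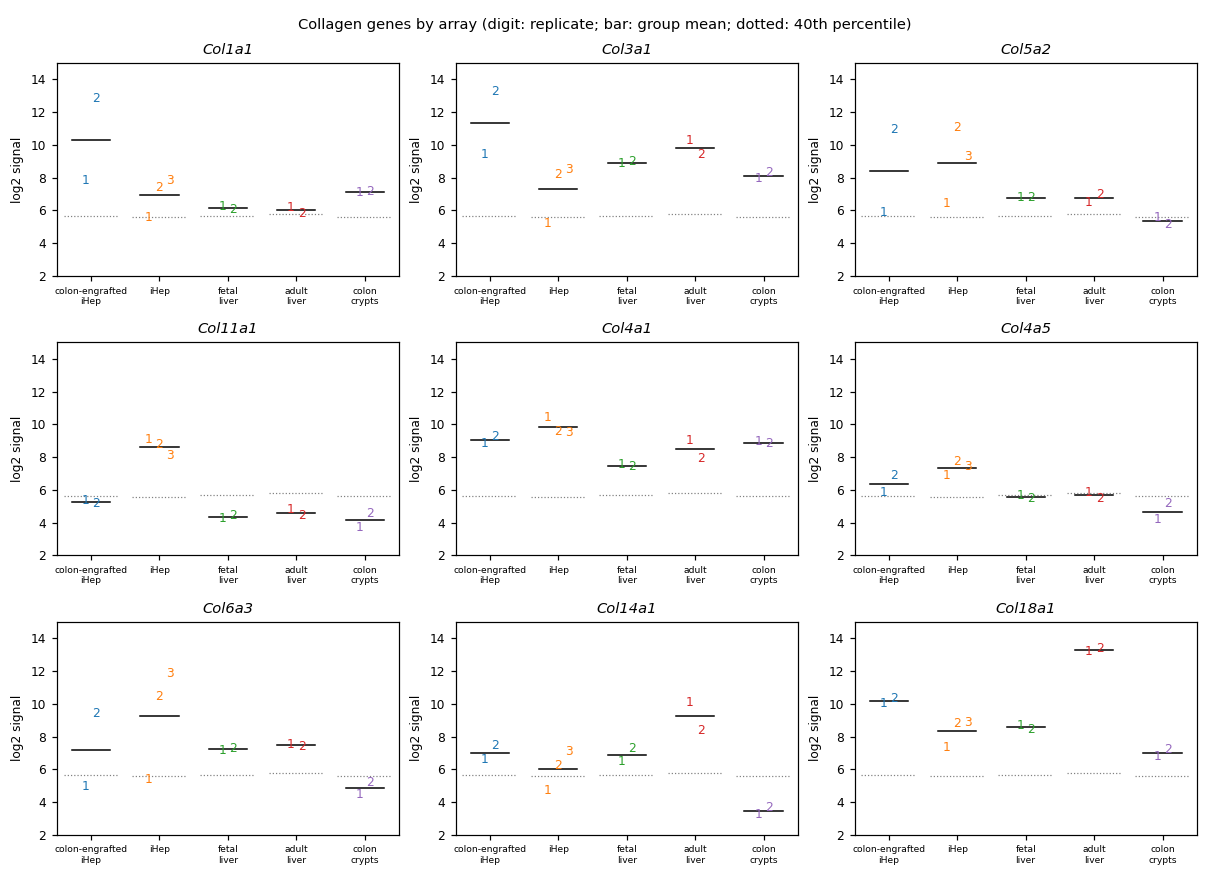
Log2 signal of 9 collagen genes by array in colon-engrafted iHeps, iHeps, fetal liver, adult liver and colon crypts; digits are replicate numbers, bars group means and dotted lines the mean 40th percentile. Col11a1 is high in the 3 iHep lines alone among these groups, Col18a1 is highest in adult liver, and the engrafted and iHep replicates split in Col1a1, Col5a2 and Col6a3.

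The 3 iHep lines shared some collagens and split in others. Lines 2 and 3 had Col1a2 at 9.52 and 11.23, Col5a2 at 11.05 and 9.29 and Col6a3 at 10.43 and 11.87, whereas line 1 had 6.53, 6.41 and 5.38. Line 1 was the highest line for Col4a1 (10.43 against 9.53 and 9.49), Col11a1 (9.06 against 8.78 and 8.09) and the hypertrophic cartilage collagen Col10a1 (7.04 against 5.34 and 5.26). Col10a1 was measurable on no other array of these 11 except engrafted replicate 2, at 5.86.

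iHeps had higher levels than colon crypts in 11 of 34 members, lower in 1, and did not pass the test in 22. Over all genes 32.3% were higher and 21.3% lower (53.6% in all), and the median difference was 1.25 over the members and 0.22 over all genes. Col11a1 led, with 3.72 and 4.55 in colon crypts beside the iHep levels above, a difference of 4.51 ± 0.33 (SE, adjusted p = 5.24e-06). A further 3 fibrillar genes were higher, namely Col27a1 by 2.74 ± 0.33, the cartilage gene Col2a1 by 1.41 ± 0.33 and Col11a2 by 1.31 ± 0.30 (SE). Col11a2 was 0.83 higher, and not called, without colon replicate 1. Col27a1 had 7.79, 7.99 and 7.70 in iHeps, against 5.24 and 4.93 in colon crypts. Col6a1 was higher by 4.10 ± 1.15 (SE, adjusted p = 0.0134), and its call was lost without colon replicate 2. In the basement membrane type, Col4a5 had 6.87, 7.74 and 7.43 in iHeps, against 4.16 and 5.14 in colon crypts, 2.70 ± 0.40 higher (SE, adjusted p = 4e-04), and Col4a6 was higher by 1.60 ± 0.29 (SE). Col14a1 had 4.72, 6.22 and 7.08 in iHeps, 2.54 ± 0.69 above colon crypts (SE, adjusted p = 0.0112), a call lost without colon replicate 1, and 1.25 on the mean of its probe sets. Col9a1, with 5.09 and 4.91 in crypts, was 1.60 ± 0.26 higher in iHeps (SE). Col18a1 (1.36 ± 0.42) and Col23a1 (0.77 ± 0.28) completed the higher genes, though Col23a1 was under the 40th percentile in both groups and both calls were lost without either colon array or iHep line 2 or 3. Col8a1 was the 1 lower gene, at 5.82, 5.94 and 5.54 in iHeps, against 7.15 and 6.75 in colon crypts, with a difference of -1.18 ± 0.22 (SE, adjusted p = 0.00136).

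Most assembly genes were higher in iHeps than in colon crypts. Of 27 tested, 22 were higher and 0 lower, and of 8 receptors 3 were higher and 1 lower; the share over all genes stands above. Pcolce had 5.73 and 6.69 in colon crypts and was 7.29 ± 0.59 higher in iHeps (SE, adjusted p = 8.95e-06). Serpinh1 had 10.98, 11.60 and 10.82 in iHeps and was higher by 5.85 ± 0.47, Plod2 by 5.41 ± 0.69 and the lysyl oxidase gene Lox by 4.82 ± 1.41 (SE).

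Against fetal liver, 4 of 34 members were higher in iHeps and none lower, beside 19.9% of all genes higher and 13.1% lower (33.0% in all). The median difference was 0.12 over the members and 0.05 over all genes. Col11a1 had 4.24 and 4.45 in fetal liver and was 4.30 ± 0.33 higher in iHeps (SE, adjusted p = 1.13e-05). Col6a1 had 5.70 and 5.40 in fetal liver and was 3.92 ± 1.15 higher in iHeps (SE, adjusted p = 0.0253), a call lost without iHep line 2, iHep line 3 or either fetal array. Col4a1 had 7.52 and 7.41 in fetal liver and was 2.35 ± 0.37 higher in iHeps (SE, adjusted p = 0.000889). Col4a5 had 5.65 and 5.49 in fetal liver and was 1.78 ± 0.40 higher in iHeps (SE, adjusted p = 0.00681), or 2.89 on the mean of its probe sets; the call was lost without fetal replicate 2. The fibrillar genes of connective tissue did not pass the test, with fetal levels of 6.24 and 6.06 for Col1a1, 8.53 and 8.52 for Col1a2, 8.87 and 8.96 for Col3a1 and 6.78 and 6.79 for Col5a2. These fetal values lay within or near the wide span of the 3 iHep lines. Col4a2 (6.97 and 6.97), Col6a2 (7.24 and 7.12) and Col18a1 (8.69 and 8.43) did not pass either, and Col17a1 (3.85 and 3.59) was under the 40th percentile. Without iHep line 1 the count was 6, given here without the share over all genes. Of the assembly genes, 15 of 27 were higher and 0 lower. Of the receptors 4 of 8 were higher and 1 lower, with the collagen receptor kinase Ddr1 at 11.50, 11.49 and 12.04 in iHeps, against 4.33 and 4.68 in fetal liver, 7.17 ± 0.38 higher (SE, adjusted p = 1.12e-06).

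Against adult liver, 3 members were higher in iHeps and 7 lower, beside 37.8% of all genes higher and 18.2% lower (55.9% in all). The median difference was -0.15 over the members and 0.26 over all genes. Col18a1 was the extreme member, with 13.18 and 13.35 in adult liver and a difference of -4.92 ± 0.42 in iHeps (SE, adjusted p = 8.28e-06). Col14a1 had 10.10 and 8.38 in adult liver, with a difference of -3.23 ± 0.69 (SE, adjusted p = 0.00264) or, on the mean of its probe sets, -1.40, and Col27a1 had 9.45 and 10.72, with a difference of -2.25 ± 0.33 (SE, adjusted p = 0.000251). Col20a1 (-1.37 ± 0.24), the transmembrane genes Col13a1 (-1.37 ± 0.21) and Col23a1 (-1.11 ± 0.28), and Col8a1 (-0.83 ± 0.22) were the other lower genes (SE). On the mean of its probe sets Col8a1 was at -0.10 and not called. Col11a1 was higher, with 4.78 and 4.42 in adult liver and a difference of 4.04 ± 0.33 (SE, adjusted p = 6.33e-06). Col4a5 had 5.85 and 5.49 in adult liver and was 1.68 ± 0.40 higher in iHeps (SE, adjusted p = 0.00507). Col4a1 had 9.01 and 7.93 in adult liver and was 1.35 ± 0.37 higher in iHeps (SE, adjusted p = 0.0107), a call lost without adult replicate 2 (0.81) and with repeated quantile normalization (0.74). Col1a1 (6.18 and 5.84 in adult liver), Col1a2 (9.26 and 8.52), Col3a1 (10.30 and 9.39), Col5a2 (6.50 and 6.99), Col4a2 (7.91 and 6.53), Col6a1 (7.69 and 6.66) and Col6a2 (8.50 and 8.56) did not pass, and Col17a1 (4.32 and 3.84) was under the 40th percentile. Of the assembly genes, 14 of 27 were higher in iHeps and 5 lower, and 2 of 8 receptors were higher. The largest were Ddr1 (6.80 ± 0.38), Plod2 (5.33 ± 0.69), Pcolce (4.88 ± 0.59) and Lox (4.07 ± 1.41), each higher in iHeps (SE).

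Fetal liver was lower than adult liver in Col18a1, Col14a1, Col27a1 and 4 further members. Of 34 members, 0 were called higher and 7 lower in fetal liver, beside 31.1% of all genes higher and 18.2% lower (49.3% in all). The median difference was -0.35 over the members and 0.16 over all genes. The spread estimate of this model also drew on the engrafted and iHep arrays, which split in many fibrillar and type VI genes. Members not called may therefore still differ. Col5a1 had 9.13 and 9.00 in fetal liver, against 7.22 and 6.59 in adult liver, 2.16 ± 1.56 (SE), and was not called. Col5a3 had 5.77 and 6.22 in fetal liver, against 9.04 and 7.75 in adult liver, -2.40 ± 1.21 (SE), also not called. Both liver comparisons share the adult arrays, so their values are given side by side and not as independent results. Col18a1 had 8.69 and 8.43 in fetal liver, within the range of the iHep lines, against 13.18 and 13.35 in adult liver, a difference of -4.71 ± 0.46 (SE, adjusted p = 2.5e-05). Col14a1 had 6.45 and 7.24 in fetal liver, against 10.10 and 8.38 in adult liver, a difference of -2.39 ± 0.75 (SE, adjusted p = 0.0236) that was lost without fetal replicate 1 or adult replicate 1 (-1.53) and was -1.09 on the mean of its probe sets. Col27a1 had 8.19 and 8.25 in fetal liver, against 9.45 and 10.72 in adult liver, a difference of -1.86 ± 0.36 (SE, adjusted p = 0.00177), or -1.23 without adult replicate 2. Col20a1 had 6.23 and 5.96 in fetal liver, against 7.52 and 7.45 in adult liver, -1.39 ± 0.27 (SE, adjusted p = 0.00164). Col13a1 had 5.70 and 5.83 in fetal liver, against 7.19 and 6.87 in adult liver, -1.27 ± 0.23 (SE, adjusted p = 0.00125). Col23a1 had 4.54 and 5.05 in fetal liver, against 6.37 and 5.78 in adult liver, -1.28 ± 0.30 (SE, adjusted p = 0.00577), lost without fetal replicate 1. Col8a1 reached -0.63 ± 0.24 with an adjusted p of 0.0487 and lost its call in 10 of 12 alternatives. In each of these 7 called genes both adult arrays were above both fetal arrays. With 2 arrays per group this was common, since 21 of the 34 tested members did not overlap. The share over all genes is not given, so this adds no support to the calls. Centring the arrays on their medians gave 1 higher and 6 lower, given here without the share over all genes. Several marker lists of other cells moved with this contrast. The fibroblast list summed to 9.14 and 9.29 in fetal liver, against 12.57 and 11.94 in adult liver. The smooth muscle list hardly moved, at 9.21 and 9.15 against 9.32 and 9.21. The stellate list had 3 of 5 genes measurable and summed signals of 10.11 and 9.61 in fetal liver, against 5 of 5 and 12.27 and 11.20 in adult liver. Within it Rgs5 had 4.29 and 3.74 in fetal liver, against 11.61 and 10.20 in adult liver, whereas Reln had 9.86 and 9.26 against 10.57 and 9.82. The erythroid list summed to 13.79 and 14.02 in fetal liver, against 9.27 and 9.31 in adult liver, with 2 of 3 genes measurable on each array. The leukocyte list summed to 13.21 and 13.53 in fetal liver, against 12.64 and 10.91 in adult liver, with all 5 genes measurable. The endothelial list summed to 10.31 and 10.57 in fetal liver, against 11.80 and 10.69 in adult liver, so adult replicate 2 lay close to the fetal arrays. The part of these cells in the collagen levels was not tested. Of the assembly genes, 1 of 27 was higher in fetal liver and 10 were lower, and 2 of 8 receptors were higher and 2 lower. Bmp1, the protease that trims procollagen, had 7.45 and 7.31 in fetal liver, against 11.04 and 11.02 in adult liver, -3.65 ± 0.54 (SE, adjusted p = 0.000343). Itga1 (-3.25 ± 0.47), Loxl4 (-3.08 ± 0.79) and Mia3 (-2.57 ± 0.27), whose product TANGO1 loads collagen for export, were also lower (SE).

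Cdx2 is an intestinal transcription factor. With its shRNA in iHeps, Col4a1 and Col5a2 were called higher whether or not same-numbered arrays were paired. The tests in this paragraph are of the fit without pairing, in which Col4a2 was also called. That made 3 of 32 members tested higher and none lower. Of all 13650 genes 0.535% were higher and 1.68% lower (2.21% in all). The paired fit, given in the next paragraph, differed in its calls and had Col18a1 lower. The median difference was 0.06 over the members and -0.0045 over all genes. Col4a1 had 11.65, 11.40, 10.92 and 10.86 with Cdx2 shRNA, against 9.81, 9.83, 10.33 and 10.21 with scramble, 1.16 ± 0.20 higher (SE, adjusted p = 0.0266). Col4a2, its partner in the type IV trimer, had 9.91, 9.85, 9.63 and 9.63 with Cdx2 shRNA, against 8.66, 8.64, 9.34 and 9.12 with scramble, 0.82 ± 0.17 higher (SE, adjusted p = 0.0433). The starts of these 2 genes are the neighbouring pair on chromosome 8 described above. Col5a2 had 11.06, 10.62, 10.54 and 10.68 with Cdx2 shRNA, against 9.87, 9.57, 9.90 and 10.22 with scramble, 0.83 ± 0.16 higher (SE, adjusted p = 0.0354). In these 3 genes all Cdx2 shRNA arrays lay above all scramble arrays. Groups did not overlap in 6 of the 32 tested members, given here without the share over all genes.

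Same-numbered Cdx2 shRNA and scramble arrays deviated together, and with the number as a block 5 members passed the test. The share of all genes called in the blocked fit is not given. Whether the rise from 3 to 5 is particular to collagens therefore cannot be told. Col4a1 (adjusted p = 0.0473) and Col5a2 (0.0316) stayed and Col4a2 (0.0595) did not. The type VI chains Col6a3 (0.76 ± 0.12, adjusted p = 0.0294) and Col6a2 (0.53 ± 0.10, adjusted p = 0.0454) were higher in the blocked fit, and Col18a1 was lower (-0.94 ± 0.19, adjusted p = 0.0496; SE). Col6a3 had 13.22, 13.13, 11.69 and 11.66 with Cdx2 shRNA, against 12.18, 12.13, 11.22 and 11.12 with scramble. Col18a1 had 8.28, 8.08, 9.10 and 8.94 with Cdx2 shRNA, against 9.73, 9.41, 9.68 and 9.36 with scramble. The differences of Col4a1 and Col18a1 were larger in pairs 1 and 2 than in pairs 3 and 4. Col1a1, Col4a2, Col5a1, Col5a2, Col6a1, Col6a2 and Col6a3 split in the same way, whereas Col11a1 and Col20a1 did not. The differences were 1.84, 1.57, 0.59 and 0.65 for Col4a1, 0.98, 1.07, 0.06 and 0.17 for Col5a1, and -1.45, -1.32, -0.58 and -0.42 for Col18a1. In Col6a3 the levels of arrays 1 and 2 also lay close together and apart from arrays 3 and 4. The 4 pairs may therefore not be 4 independent units. Col14a1, at -2.27, -1.74, -0.09 and -0.32, passed neither test. The chains of type I ran apart, with differences of 1.55, 1.14, 0.50 and 0.50 for Col1a1 and of -0.22, -0.23, -0.22 and -0.21 for Col1a2, neither of which passed in either fit.

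**Figure D4:**
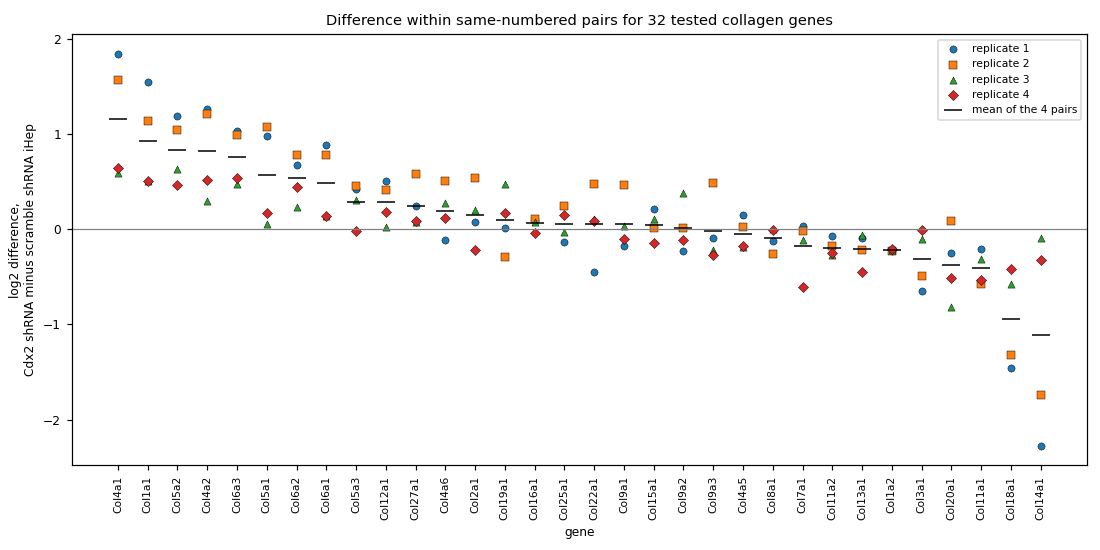
Log2 difference of Cdx2 shRNA minus scramble shRNA iHeps within each same-numbered pair for the 32 tested collagen genes, ordered by their mean. Pairs 1 and 2 lie farther from 0 than pairs 3 and 4 at the high end for Col4a1, Col1a1, Col5a2, Col4a2, Col6a3, Col5a1, Col6a2 and Col6a1. At the low end they do so for Col18a1 and Col14a1. Col11a1 and Col20a1, also low in the order, do not show this.

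The calls depended on single arrays. Leaving out 1 array at a time gave 0 to 2 called members: 0 without scramble replicate 1, 2 or 4 or Cdx2 shRNA replicate 2, and 1 without Cdx2 shRNA replicate 1. For these fits the share over all genes is not given. Col5a2 lost its call without any 1 of the 8 arrays. Beside the collagens, 5 to 6 of 11 fibroblast markers were measurable with Cdx2 shRNA, against 7 with scramble, and their signals summed to 11.84 to 12.37 with Cdx2 shRNA, against 11.82 to 11.90 with scramble. Single markers ran both ways. Pdgfrb had 11.46, 11.23, 10.51 and 10.62 with Cdx2 shRNA, against 10.44, 10.30, 10.30 and 10.06 with scramble, whereas Dcn had 5.44, 5.63, 6.38 and 6.43 with Cdx2 shRNA, against 6.43, 6.59, 7.37 and 7.20 with scramble. The hepatocyte gene Cyp3a11 had 7.09, 9.02, 11.92 and 11.95 with Cdx2 shRNA, against 10.89, 11.13, 11.87 and 11.74 with scramble, and so was lower in pairs 1 and 2 alone. All 7 hepatocyte markers together summed to 14.68, 15.07, 15.42 and 15.42 with Cdx2 shRNA, against 15.23, 15.38, 15.39 and 15.34 with scramble. The part of these markers in the result was not tested. Of 27 assembly genes 2 were higher and 0 lower, beside 0.535% of all genes higher and 1.68% lower, and of 6 receptors none passed. Lox had 12.33, 12.55, 11.56 and 12.12 with Cdx2 shRNA, against 10.35, 10.80, 10.53 and 11.31 with scramble, 1.39 ± 0.25 higher (SE, adjusted p = 0.0309). Sparc, which encodes a collagen-binding protein of basement membranes and fibrils, was higher by 0.85 ± 0.16 (SE, adjusted p = 0.0359).

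In induced macrophages 12 to 17 of the 42 members were measurable per array, against 28 to 32 in the shRNA-treated iHeps. None of the type IV or type VI genes was among the 16 members tested, and Col1a2, Col3a1 and Col5a2 were at or under 5.74 on all 6 arrays. The cells instead had Col9a3, a FACIT chain known from cartilage, at 8.72 to 8.95, and Col20a1 at 7.81 to 8.41. With Ebf1 shRNA 1 member was higher and 1 lower, beside 6.21% of 12484 genes higher and 8.16% lower (14.4% in all). Col5a1 had 7.95 and 7.55 with Ebf1 shRNA, against 6.31 and 5.60 with scramble, 1.80 ± 0.29 higher (SE, adjusted p = 0.0137), or 1.17 on the mean of its probe sets. Col27a1 had 8.18 and 7.77 with Ebf1 shRNA, against 9.43 and 9.15 with scramble, a difference of -1.32 ± 0.17 (SE, adjusted p = 0.00635). In both genes the groups did not overlap, which held for 10 of the 16 tested members and is given without the share over all genes. The arrays labelled Pou2af1 shRNA had 5.46 and 4.91 for Col5a1 and 9.44 and 9.51 for Col27a1. The Col5a1 call was lost without scramble replicate 2 or Ebf1 shRNA replicate 1, and the Col27a1 call without scramble replicate 1, and the count was 1 in each of these cases. The prolyl hydroxylase P4ha1 was the 1 of 17 assembly genes that passed, 0.96 ± 0.11 higher (SE, adjusted p = 0.00388), and Itga1, 1 of 5 receptors, was 2.28 ± 0.15 higher (SE, adjusted p = 0.00081).

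On the arrays labelled Pou2af1 shRNA, 0 of 16 members were higher and 1 was lower, beside 6.79% of all genes higher and 5.14% lower (11.9% in all). Col11a2 had 7.48 and 7.48 on these arrays, against 8.67 and 8.66 with scramble, a difference of -1.19 ± 0.21 (SE, adjusted p = 0.0213). With Ebf1 shRNA it had 7.65 and 8.33. The call was lost when any 1 of the 4 arrays was left out, which gave 0 called members. Both shRNA comparisons share the scramble arrays. P4hb was the 1 of 17 assembly genes that was lower (-0.57 ± 0.11, SE, adjusted p = 0.0268), and Itga1 was higher by 0.64 ± 0.15 (SE, adjusted p = 0.0429).

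**Figure D5:**
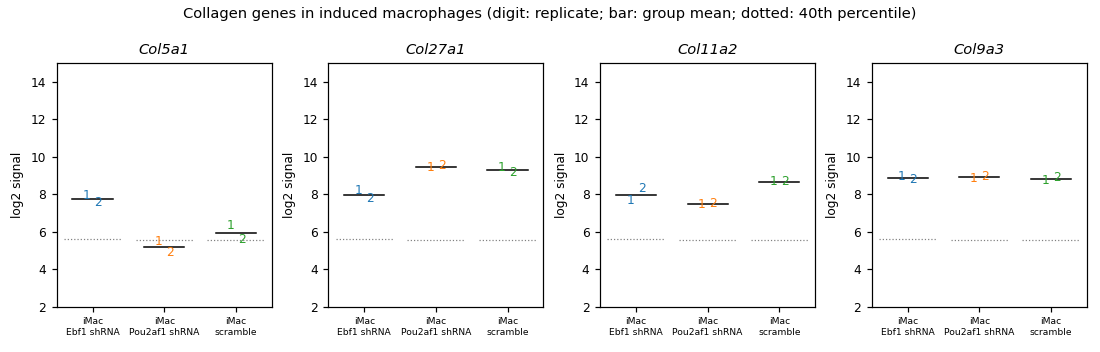
Log2 signal of 4 collagen genes in induced macrophages with Ebf1 shRNA, labelled Pou2af1 shRNA or scramble shRNA; digits are replicate numbers, bars group means and dotted lines the mean 40th percentile. Col5a1 is highest and Col27a1 lowest with Ebf1 shRNA, Col11a2 is highest with scramble, and Col9a3 lies between 8.72 and 8.95 on all 6 arrays.

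Members with more than 1 probe set gave a limited check within the arrays. For the called differences, 37 other probe sets of the same genes were measurable on at least 2 of the arrays compared, and 37 had the same sign. A probe set could reach that bar through the higher group alone, which favours the same sign. Among probe sets short of the bar, some had the opposite sign. In iHeps against colon crypts, another Col23a1 probe set differed by -0.72, against 0.77 for the one used. The other 14 members are given by their lowest and highest level over the 25 arrays. Col6a4 lay between 4.74 and 5.73, Col9a2 between 5.08 and 5.97, Col19a1 between 5.16 and 6.05, Col22a1 between 5.37 and 6.16, Col26a1 between 4.23 and 5.69, Col15a1 between 4.54 and 6.82, Col25a1 between 6.51 and 8.10, Col12a1 between 5.41 and 7.63, and Col16a1 between 5.93 and 8.92. Among the members measurable on no array, Col4a3 reached 5.67, Col4a4 5.50, Col8a2 5.05, Col6a5 3.79 and Col24a1 3.41. None of the 14 passed the test as reported in any of the 9 comparisons. Some passed under an alternative, among them Col12a1 and Col16a1 in engrafted iHeps against colon crypts without engrafted replicate 1.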

How the data were processed

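RNA of 25 samples was hybridised to Affymetrix mouse arrays, after amplification from 100 ng of total RNA per the labels. The deposited values are log2 signals of probe sets made by the authors with RMA, per the submitters' processing notes; its version is not given in the sources used here. Of 45101 probe sets, 34945 had 1 gene symbol in the platform annotation, which gave 18193 genes. The members, gene lists and tests were chosen with earlier results of these data known. Values in every array are given for 10 collagens of fixed name and for up to 6 called members per comparison with the largest change and no overlap, and up to 4 called pathway genes.

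limma 3.58.1 (R 4.3.3; lmFit and eBayes) was fitted on the log2 values in 3 models: 5 groups of liver, colon and iHep (11 arrays, 6 residual degrees of freedom), Cdx2 shRNA (8 arrays, 6) and iMac (6 arrays, 3). Genes above the 40th percentile in at least 2 arrays of the model were tested, two-sided, with Benjamini-Hochberg adjustment over all of them at 0.05. The script was tested on simulated data. Figures were drawn with matplotlib 3.10.9. Of the pathway list, 38 of 43 genes were on the platform. Same-numbered Cdx2 shRNA and scramble arrays deviated together over 13650 genes (correlations of 0.53, 0.32, 0.58 and 0.44). They were treated as pairs in the blocked fit and in the differences by pair, but not in the main test. No label states this pairing.

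Alternatives were no filter, a 60th percentile filter, probe sets averaged per gene, repeated quantile normalization, median centring, a trend with robust fitting, a block on the replicate number, 1 model over all 25 arrays, and each array left out. Crossed adult liver numbers were added after seeing the data.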

Additional observations from a re-analysis of the deposited data

Results flagged for a closer look

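In the groups of 4 arrays, 5 of 84 gene and group combinations held an array far from the other 3, by Dixon's test; chance flags about 1 in 20. Scramble iHep replicate 2 had Col6a4 at 5.10, with the others at 5.40 to 5.45, and Col9a3 at 6.35, with the others at 6.64 to 6.68. Scramble iHep replicate 3 had Col19a1 at 5.16, with the others at 5.43 to 5.48, and Col26a1 at 4.57, with the others at 4.27 to 4.30. Cdx2 shRNA iHep replicate 3 had Col26a1 at 4.23, with the others at 4.48 to 4.50. None of these genes passed the test between Cdx2 shRNA and scramble iHeps.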

How the results depend on the processing

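No collagen difference called in the main fit turned its direction under any alternative run. Col5a3 in engrafted iHeps against iHeps, not called in that fit, changed direction with the engrafted array left out, as described above. The counts in this section are given without the share of all genes called in the same run. That share can move with the setting too, so these counts do not set collagens apart from other genes. With all 25 arrays in 1 model the counts were 14 for engrafted iHeps against iHeps, 18 against colon crypts, 25 for iHeps against colon crypts, 7 against fetal liver, 18 against adult liver, 12 for fetal against adult liver, 1 for Cdx2 shRNA and 1 for Ebf1 shRNA. Averaging the probe sets of each gene gave 7 for engrafted iHeps against colon crypts, repeated quantile normalization 11 for fetal against adult liver, and no filter 2 on the arrays labelled Pou2af1 shRNA. The replicate block gave 5 for Cdx2 shRNA and 2 for the arrays labelled Pou2af1 shRNA, where numbers are shared but nothing shows pairing, and in 7 other comparisons left the count within 1.5 times; crossing the adult liver numbers left 7. Leaving out 1 array gave 7 to 11 members for engrafted iHeps against iHeps, 2 to 17 against colon crypts, 8 to 17 for iHeps against colon crypts, 2 to 6 against fetal liver, 8 to 14 against adult liver, 4 to 6 for fetal against adult liver, 0 to 2 for Cdx2 shRNA, 1 to 3 for Ebf1 shRNA and 0 to 0 for the arrays labelled Pou2af1 shRNA. The causes were not tested. Centring on medians moved differences by -0.11 (engrafted against iHeps), 0.13 (iHeps against crypts), 0.16 (iHeps against adult liver) and 0.11 (fetal against adult liver). Of 43 differences of named members that did not pass, 16 had the other sign in at least 1 alternative. Groups of 2 arrays, and levels near the 40th percentile, limit what could be called.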
